A study of Mus musculus with 199 samples.

Results

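The synaptic vesicle and exocytosis genes described here are 37 named genes, found by their symbols among the 31581 mouse genes of the deposited expected count table. They comprise 7 synaptotagmins, 9 SNARE proteins, 6 Rab GTPases, 7 vesicle membrane or vesicle-associated proteins, 6 clamps and priming factors, and 2 neural cell adhesion molecules. Levels are counts scaled to each library's gene total (CPM) over all mouse genes, with the synthetic spike-in transcripts (ERCC) left out. No measured value was used to choose the genes by the rule, although earlier results of these data were known.

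The samples model small cell lung cancer, a neuroendocrine tumour, in mouse cells. KP1 cells (Rb1-/-Trp53-/-) were grown as spheroids in culture, or recovered as colonies from the livers of immunocompromised nude mice or immunocompetent F1 mice, and 10 cells per library were taken by laser capture from 8 µm cryosections. There were 28 spheroid, 33 nude liver and 31 F1 liver 10-cell libraries, and 24 from spheroids of RPC cells (Rb1-/-Trp53-/-p130-/+Crebbp-/-), described by the labels as a pre-SCLC line. Pool-and-split controls, in which material is combined and divided again so that their spread is that of the method, numbered 20 for spheroids, 35 for nude livers and 24 for F1 livers, and 1 bulk library each came from the lines KP1, KP2 (Rb1-/-Trp53-/-Ptch1+/lacz), KP3 (Rb1-/-Trp53-/-Axin2+/lacz) and KP5 (Rb1-/-Trp53-/- BAT-GAL). Every line lacks Rb1 and Trp53. KP1 and RPC are 1 line each, so a difference between them is not one of genotype alone, and the nude and F1 hosts differ in both strain and immune competence. The labels give no number of animals or cultures, so p-values speak for captures, or in pools for splits of combined material. They measure a spread that may be technical.

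Regulated exocytosis releases transmitters, hormones and granule contents. Vesicle SNAREs (Vamp proteins) zip up with target membrane SNAREs (syntaxins and Snap25) to fuse the membranes, complexins hold the assembled complex until calcium arrives, and synaptotagmins sense the calcium. Rab3 and Rab27 bring vesicles to the membrane, Unc13 and CAPS proteins prime them, and synapsins, SV2 proteins and synaptophysin belong to the vesicle itself. Neuroendocrine cells use this machinery for dense core granules, and synaptophysin and Ncam1 (CD56) are widely used stains for small cell lung cancer.

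Gene counts per library ran from 3775229 to 5308787 in spheroids, 718208 to 4239792 in nude liver, 1646395 to 5432858 in F1 liver and 3485529 to 7557773 in RPC 10-cell libraries. The ERCC share separated libraries within groups: 9 of 28 spheroid libraries held at least 0.1% ERCC counts and 19 held less, while 22 of 24 RPC libraries and every liver library held at least 0.1%. A share over 10% occurred in 17 of 24 F1 pools. The pseudogene Rpl19-ps11 reached 200 CPM in 25 of 31 F1 liver libraries, 1 nude liver library and 1 spheroid library. The 21 hepatocyte markers summed to a median of 1174 CPM in nude liver (33.8 to 6517, all 21 with counts), 199 CPM in F1 liver (0 to 3084) and 1.11 CPM in spheroids (0 to 99.2, with 15 genes including Alb at 0). The 12 neuroendocrine markers all had counts in each 10-cell group and summed to 954 to 5224 CPM in spheroids, 1272 to 6705 CPM in nude liver, 1331 to 8517 CPM in F1 liver and 1471 to 4894 CPM in RPC libraries. The macrophage markers had medians of 4.52 CPM in spheroids (0 apart from Csf1r), 53.2 CPM in nude liver and 46.7 CPM in F1 liver. The 6 erythrocyte markers had medians of 0, 551 and 1622 CPM in the same order. The 12 endothelial and stellate markers had 3.25, 40.3 and 29.2 CPM, and the 9 platelet, megakaryocyte and mast cell markers 38.8, 131 and 60.5 CPM. T and NK cell markers had medians of at most 0.4 CPM in these groups. In KP1 bulk, from culture, the endothelial and stellate markers summed to 97.85 CPM and the platelet, megakaryocyte and mast cell markers to 236.6 CPM. The sums of these lists are therefore not particular to host cells. In tissue captures, fewer cells of a type and less RNA per cell cannot be told apart.

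The promoters of 4 members are shown because each of these genes was higher in nude liver colonies than in spheroids, in 10-cell libraries, pools or both. Each is the RefSeq window (GRCm38.p6) from 250 bases before to 50 after an annotated start, and the capitals mark a neuronal E-box core (CAGCTG) or the second part of the RE1 silencer element (GGACAG, or its other strand CTGTCC). Rab3d has no capitals because no searched motif lies in its window.
Cplx2, chr13:54302306-54302605, plus strand: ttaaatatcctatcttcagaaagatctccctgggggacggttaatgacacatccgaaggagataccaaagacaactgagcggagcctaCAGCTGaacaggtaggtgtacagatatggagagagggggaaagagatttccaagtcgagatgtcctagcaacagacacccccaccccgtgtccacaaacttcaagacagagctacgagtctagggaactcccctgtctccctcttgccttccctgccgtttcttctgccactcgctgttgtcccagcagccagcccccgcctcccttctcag
Syt11, chr3:88772550-88772849, minus strand: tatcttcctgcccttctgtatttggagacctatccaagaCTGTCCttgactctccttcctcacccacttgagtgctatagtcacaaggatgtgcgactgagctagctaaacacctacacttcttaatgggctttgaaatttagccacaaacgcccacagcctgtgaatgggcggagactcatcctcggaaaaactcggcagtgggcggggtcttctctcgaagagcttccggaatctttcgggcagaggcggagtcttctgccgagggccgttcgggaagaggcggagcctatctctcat
Rab27a, chr9:73044560-73044859, plus strand: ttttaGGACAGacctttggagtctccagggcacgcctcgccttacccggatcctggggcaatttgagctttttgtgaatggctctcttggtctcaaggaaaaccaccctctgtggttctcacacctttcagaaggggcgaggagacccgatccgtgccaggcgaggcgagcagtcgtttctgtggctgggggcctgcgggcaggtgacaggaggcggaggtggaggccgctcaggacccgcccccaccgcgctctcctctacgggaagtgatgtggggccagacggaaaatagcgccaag
Rab3d, chr9:21918134-21918433, minus strand: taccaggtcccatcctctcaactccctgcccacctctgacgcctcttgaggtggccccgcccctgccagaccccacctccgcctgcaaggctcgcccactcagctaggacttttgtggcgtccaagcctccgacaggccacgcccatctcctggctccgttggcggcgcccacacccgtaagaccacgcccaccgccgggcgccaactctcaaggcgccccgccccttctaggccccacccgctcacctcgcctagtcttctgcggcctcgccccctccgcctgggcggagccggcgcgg

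The Cplx2 match starts 161 bases before the annotated start, the Syt11 match 210 bases before it and the Rab27a match 244 bases before it. The Cplx2 window lies upstream of the gene as annotated in the count table (13:54371349-54383917), and the Syt11 window belongs to a start inside its gene. Rab27a has another RefSeq window (chr9:73063898-73064197), not shown, in which CAGCTG starts 14 bases before the annotated start. RefSeq windows were found for 27 of the 37 members (36 windows). CAGCTG occurred on either strand in 10 of the 36 member windows, and in 16.4% of all 32544 windows of this length. GGACAG occurred in 9 of the 36 windows and 22.3% of all. CAGCACC, the first part of RE1, occurred in 4 of the 36 windows and 7.16% of all, and both parts with 2 bases between them in 0 member windows and 0.0369% of all. The CAGCTG and CTGTCC matches of Sypl overlap each other. A match in a window is a description of letters only.

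The members spanned a wide range of levels in the 10-cell libraries. Cplx2 (complexin 2) and Syt11 (a synaptotagmin that does not bind calcium) had counts in 195 of 195 10-cell and pool libraries. At the other end, Stx1a, the plasma membrane syntaxin of synapses, had no count in any KP1 10-cell library, spheroid or liver. Syp, which encodes the diagnostic stain synaptophysin, had a median of 0 CPM in spheroids, 0.353 CPM in nude liver, 0 CPM in F1 liver and 2.42 CPM in RPC libraries. After every library was thinned to 718207 counts, the median number of members detected, of 37, was 21 in spheroids (15 to 30), 23 in nude liver, 20 in F1 liver and 26 in RPC libraries (16 to 34). Pools gave 23.5 in spheroids, 20 in nude liver and 17 in F1 liver, and the bulk libraries gave 33 to 37. Without thinning the 10-cell medians were 26, 28, 24 and 30.5 in the same order. Of the 37 members, 27 had enough counts to be tested in at least 1 of the 7 comparisons of means, and 20 were tested in all 7.

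**Figure D1:**
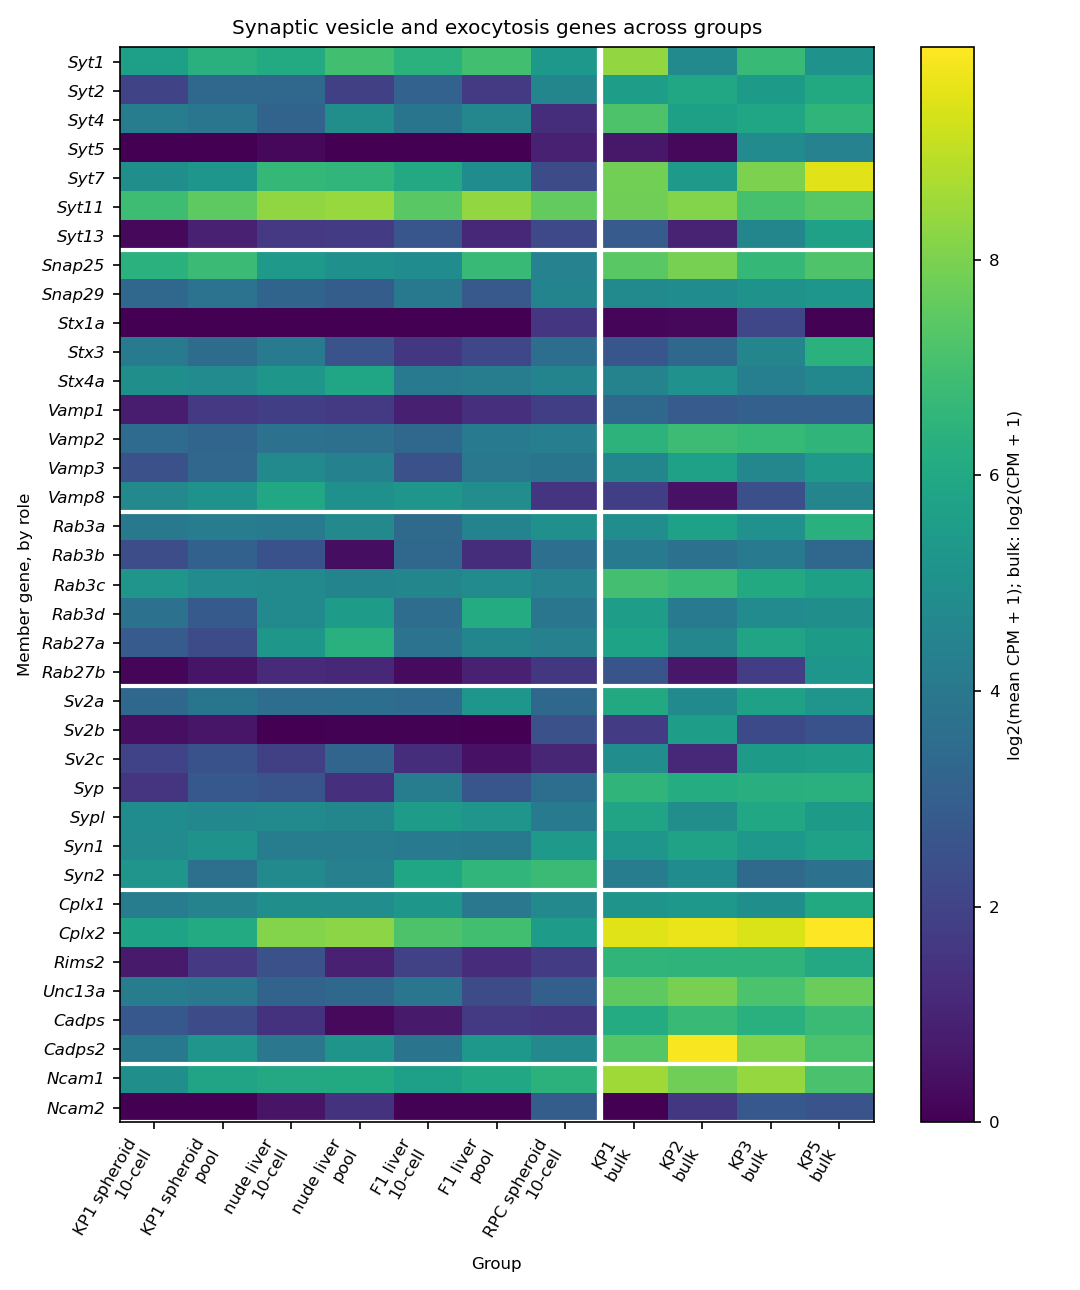
Heat map of the 37 members (grouped by role, vertical) in the 7 groups of 10-cell and pool libraries and the 4 bulk lines (horizontal); colour is log2(mean CPM + 1), or log2(CPM + 1) for the single bulk libraries. Cplx2 and Syt11 are bright in every column, while Rims2 and Cadps are bright in the bulk columns and dark in the 10-cell columns.

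The first comparison asked how the members differ between KP1 colonies in nude livers and the same cells in spheroids. Of 23 members tested, 5 rose in the liver colonies and 1 fell: the clamp Cplx2, the synaptotagmins Syt11 and Syt7, the vesicle SNARE Vamp3 and the GTPase Rab27a were higher, and the target SNARE Snap25 was lower. Over all 7834 genes tested, 34.1% passed (17.7% higher and 16.3% lower), so the members' share was not above that of genes at large. The members' median log2 fold change was 0.07, against -0.04 over all genes. An unadjusted p under 0.05 was found for 10 of the 23 members and 3372 of the 7834 genes, a like share.

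Complexin 2 clamps and then promotes fusion of primed vesicles. Cplx2 (13:54371349-54383917, plus strand, GRCm38) lay at 1.07, 21.2 and 223 CPM (lowest, median and highest library) in spheroids and at 46.5, 233 and 878 CPM in nude liver. All 33 nude liver libraries were above the spheroid median, although the groups overlap between 46.5 and 223 CPM. The mean was 279 ± 204 CPM (SD, n = 33) against 54.8 ± 64.7 CPM (SD, n = 28). The log2 fold change was 2.46 ± 0.40 (SE), a 5.51-fold rise with an adjusted p of 9.23e-07 by edgeR's quasi-likelihood test.

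Syt11 (3:88744700-88775164, minus strand) takes part in vesicle trafficking without sensing calcium. It was at 4.48, 99.2 and 347 CPM in spheroids and at 83.1, 282 and 916 CPM in nude liver, so its lowest nude liver library was near the spheroid median. It rose 2.59-fold (log2 1.37 ± 0.28 SE, edgeR adjusted p = 6.53e-05). Syt7 (19:10389090-10453181, plus strand), a slow, high-affinity calcium sensor of granule release, was at 1.11, 14.6 and 219 CPM in spheroids and at 0.487, 75.1 and 506 CPM in nude liver. The groups overlapped over nearly the whole spheroid range, and the rise was 3.16-fold (log2 1.66 ± 0.47 SE, edgeR adjusted p = 0.00388).

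Vamp3 (cellubrevin; 4:151047300-151057963, minus strand) is the vesicle SNARE of recycling endosomes and non-neuronal secretion. It was at 0, 2.32 and 25.9 CPM in spheroids and at 0.466, 10.6 and 154 CPM in nude liver, with 28 of 33 nude liver libraries above the spheroid median. It rose 6.09-fold (log2 2.61 ± 0.56 SE, edgeR adjusted p = 0.000158). Rab27a (9:73044854-73097629, plus strand) docks granules at the plasma membrane. It was at 0, 1.5 and 74.3 CPM in spheroids and at 0, 6.84 and 368 CPM in nude liver, overlapping throughout except for the highest liver libraries. It rose 5.54-fold (log2 2.47 ± 0.70 SE, edgeR adjusted p = 0.00389).

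Snap25 (2:136713453-136782428, plus strand), the target SNARE of neurons and neuroendocrine cells, went the other way. It was at 9.89, 64.8 and 236 CPM in spheroids and at 0, 19.1 and 285 CPM in nude liver, so most liver libraries were low but 1 exceeded every spheroid library. It fell by 1.06 ± 0.41 (SE) on the log2 scale (edgeR adjusted p = 0.0371). That call was lost without the highest spheroid library, replicate 5 (log2 -1.02, edgeR adjusted p = 0.0531), and under RLE scaling (log2 -0.86, edgeR adjusted p = 0.11), where Rab3d joined the higher members and the split was 6 higher and 0 lower, beside 1477 higher and 1248 lower over all genes. Members just short of the threshold were Ncam1 (log2 1.00, edgeR adjusted p = 0.0566), Syt4 (log2 -1.16, edgeR adjusted p = 0.0691) and Rab3d (log2 1.36, edgeR adjusted p = 0.0825). Vamp8, at 3.34, 24.5 and 444 CPM against 0, 6.11 and 274 CPM, had 30 of 33 nude liver libraries above the spheroid median and was at log2 1.05 (edgeR adjusted p = 0.193). DESeq2 (log2 2.32, adjusted p = 5.77e-05) and limma-voom (log2 2.52, adjusted p = 0.000711) called it higher.

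RNA of other liver and blood cells moved with this comparison: the hepatocyte marker sum had a median of 1174 CPM in nude liver and 1.11 CPM in spheroids, and the erythrocyte sum 551 and 0 CPM. With the log of the hepatocyte sum in the model, the 6 members kept their direction and none passed. The sum itself nearly separates the groups (33.8 to 6517 CPM in nude liver, 0 to 99.2 CPM in spheroids). This fit therefore cannot tell its part from that of the environment, and a loss of calls in it is not informative. Over all genes the calls went from 2669 to 130 of 7834, so the loss was not particular to the members. Cplx2 was at log2 2.45 (edgeR adjusted p = 0.198), Rab27a at 3.44 (edgeR adjusted p = 0.516) and Snap25 at -1.70 (edgeR adjusted p = 0.369), and the only member called was Unc13a at log2 -4.23 (edgeR adjusted p = 0.0131). Among the 17 nude liver libraries with the lowest marker sums (33.8 to 1174 CPM), Cplx2 was higher by log2 2.14 (edgeR adjusted p = 0.000333), Syt7 by 1.46 (edgeR adjusted p = 0.0442) and Snap25 lower, at -1.51 (edgeR adjusted p = 0.0104). Rab27a was at log2 1.73 there (edgeR adjusted p = 0.0858), and 7 of 26 members passed in all, with Syt2 and Ncam1 added as higher, beside 2185 of 8502 genes. The part of the remaining hepatocyte RNA, and of erythrocyte, endothelial, macrophage and platelet RNA, in these differences was not tested.

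**Figure D2:**
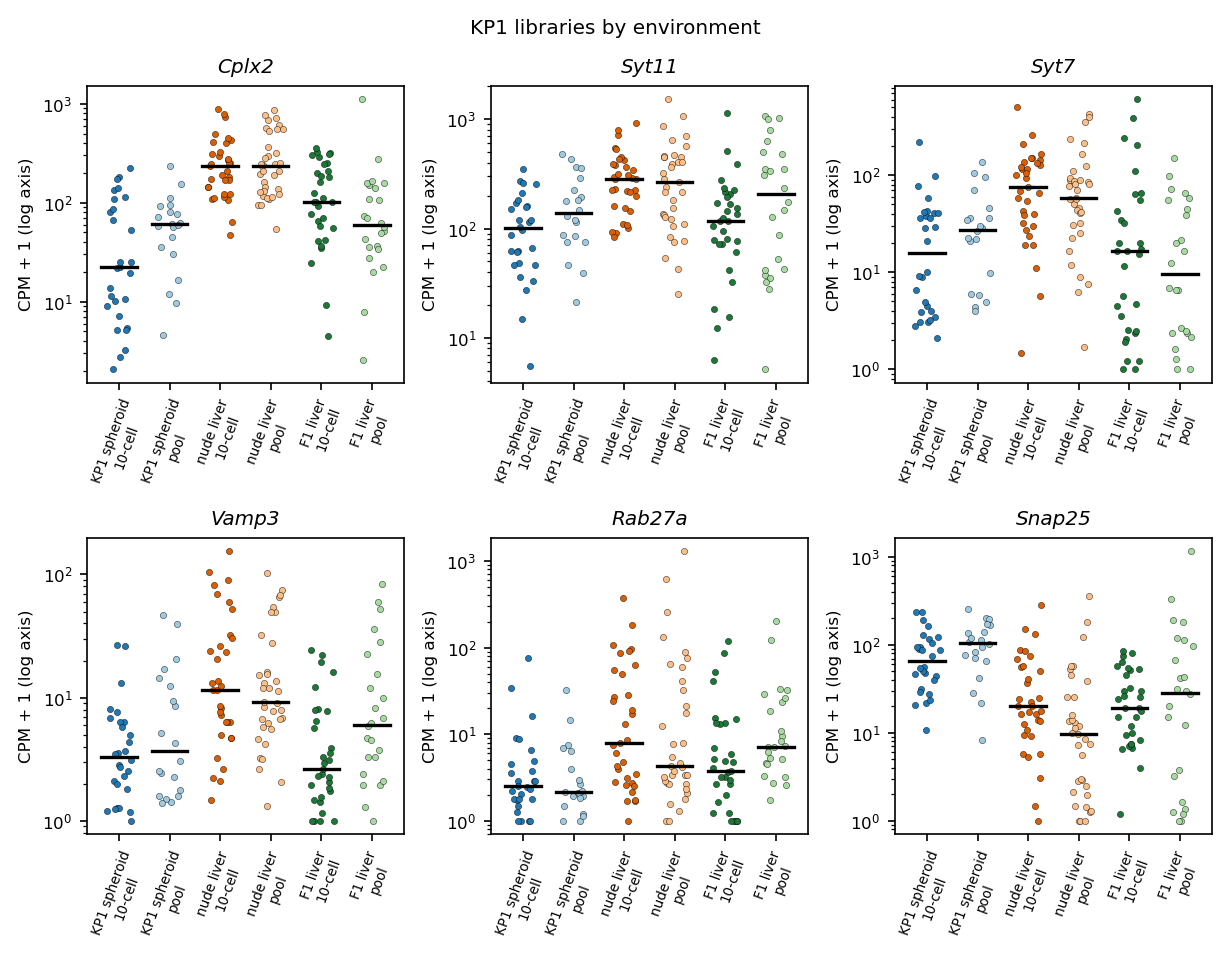
CPM + 1 per library (vertical, log axis) of the 6 members that differed between nude liver and spheroid 10-cell libraries (Cplx2, Syt11, Syt7, Vamp3, Rab27a and Snap25), in KP1 spheroid, nude liver and F1 liver 10-cell libraries and pools (horizontal); each point is 1 library and the bar is the group median. All nude liver points of Cplx2 lie above the spheroid median of 21.2 CPM, and the nude pools of Rab27a reach 1304 CPM from a median of 3.26 CPM.

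The same question was asked of colonies in immunocompetent F1 livers, against the same 28 spheroid libraries, so these results are not independent of those from nude livers. Of 24 members tested, 1 rose (Cplx2) and 2 fell (Snap25 and Stx3), against 12.6% of 7309 genes called (7.73% higher and 4.91% lower). Fold changes had a log2 median of 0.39 over the members and 0.22 over all genes. RLE scaling gave 2 higher and 2 lower, with Syt11 joining Cplx2 (log2 1.09, edgeR adjusted p = 0.0415), beside 638 genes higher and 330 lower. With limma-voom the balance turned, with 2 members higher and 6 lower, beside 414 genes higher and 1329 lower.

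Cplx2 was at 3.51, 102 and 353 CPM in F1 liver, with 29 of 31 libraries above the spheroid median of 21.2 CPM and a wide overlap below 223 CPM. It rose 3.48-fold (log2 1.80 ± 0.43 SE, edgeR adjusted p = 0.00278). Snap25 was at 0.210, 18.1 and 83.8 CPM in F1 liver, with 3 of 31 libraries above the spheroid median of 64.8 CPM and overlap from 9.89 to 83.8 CPM. It fell by 1.37 ± 0.37 (SE) on the log2 scale (edgeR adjusted p = 0.00815). Stx3, a syntaxin of apical and granule fusion, was at 0, 2.95 and 118 CPM in spheroids (counts in 20 of 28) and at 0, 0 and 18.5 CPM in F1 liver (counts in 12 of 31). It fell by 2.73 ± 0.84 (SE) on the log2 scale (edgeR adjusted p = 0.0217). Without the highest spheroid library, replicate 19, Stx3 was at log2 -2.25 (edgeR adjusted p = 0.0555).

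Erythrocyte markers, at a median of 1622 CPM in F1 liver and 0 CPM in spheroids, exceeded the hepatocyte sum of 199 CPM there, and their part in these results was not tested. With the hepatocyte marker sum in the model, where 478 of 7309 genes passed, Cplx2 was at log2 2.01 (edgeR adjusted p = 0.0109) and Rab27a passed at 2.83 (edgeR adjusted p = 0.0468), while Snap25 (log2 -1.42, edgeR adjusted p = 0.0544) and Stx3 (log2 -1.96, edgeR adjusted p = 0.25) did not pass. Against only the 9 spheroid libraries with ERCC, 0 of 27 members and 174 of 8897 genes passed (Cplx2 log2 2.21, edgeR adjusted p = 0.06; Snap25 log2 -1.49, edgeR adjusted p = 0.177). Against the 19 without, 2 of 24 members and 676 of 7861 genes passed. When the F1 group was limited to its 6 libraries under 200 CPM of Rpl19-ps11, 0 of 28 members and 358 of 10036 genes passed (Cplx2 log2 1.98, edgeR adjusted p = 0.0839), and with the other 25 libraries 4 of 23 members and 1083 of 7225 genes passed. Cplx2 and Snap25 kept their directions in these fits, as did Stx3 where it was tested, which was not the case with those 25 libraries.

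Compared directly, F1 and nude liver colonies differed in 1 of 22 members tested, against 19.2% of 7064 genes called (11.2% higher and 7.98% lower in F1). The median log2 difference was -0.14 for the members and 0.26 for all genes. Vamp3 was at 0, 1.65 and 23.2 CPM in F1 liver and at 0.466, 10.6 and 154 CPM in nude liver, with overlap below 23.2 CPM and 5 of 31 F1 libraries above the nude median. It was 4.54-fold lower in F1 (log2 -2.18 ± 0.58 SE, edgeR adjusted p = 0.00392). With the hepatocyte marker sum in the model Vamp3 was at log2 -2.27 (edgeR adjusted p = 0.0119). Among the libraries with the lowest marker sums it was at -2.43 (edgeR adjusted p = 0.0544). In that last setting 1 of 22 members, another than Vamp3, passed as lower in F1, beside 512 of 6608 genes. The other members that rose in nude liver did not pass in the main edgeR fit of this comparison. The F1 minus nude log2 difference was -0.63 for Cplx2 (95% interval -1.24 to -0.02, edgeR adjusted p = 0.147). It was -0.30 for Syt11 (-0.95 to 0.35), -0.39 for Syt7 (-1.48 to 0.69) and -0.87 for Rab27a (-2.21 to 0.46), so these intervals leave room for a lower level in F1. For Snap25 the difference was -0.28 (-1.16 to 0.61). Other tools called some of these: Syt11 was lower in F1 with DESeq2 (log2 -0.76, adjusted p = 0.0324) and limma-voom (log2 -0.91, adjusted p = 0.0257), and Syt7 with limma-voom (log2 -2.07, adjusted p = 0.00777). In all, of 22 members DESeq2 called 1 higher and 3 lower in F1, beside 1178 and 794 of all genes. The limma-voom fit called 0 members higher and 6 lower. The balance over all genes depends on the scaling and tool, with 667 higher and 684 lower under RLE scaling and 600 and 1151 with limma-voom.

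The pools repeat the preparation on combined material and give a second view of the averages. Their libraries are splits of that material, so p-values from pools speak for the splits and not for animals or separate captures. In nude liver pools against spheroid pools, 5 of 24 members tested rose and 0 fell, against 25.6% of 8010 genes (16.5% higher and 9.13% lower). The members' median on the log2 scale was 0.67, and that of all genes 0.16. Cplx2, at 53.6, 233 and 860 CPM against 3.58, 59.3 and 233 CPM, rose 5.45-fold (log2 2.45 ± 0.36 SE, edgeR adjusted p = 2.21e-07). The highest spheroid pool reached the median of the nude pools. Rab3d, a GTPase of granules in exocrine and other secretory cells (9:21907491-21918192, minus strand), was at 0, 18.1 and 284 CPM against 0, 3.25 and 22.1 CPM and rose by log2 3.12 ± 0.72 (SE, edgeR adjusted p = 0.000542). For Rab3d part of the nude pools lay above every spheroid pool, with overlap at the low end.

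Rab27a rose by log2 4.53 ± 1.00 in the nude pools (SE, edgeR adjusted p = 0.000308), with 0, 3.26 and 1304 CPM against 0, 1.14 and 31.8 CPM. The medians differ far less than the fitted means, and 1 pool (replicate 15) held 1304 CPM. Without it the fold change was log2 3.74 (edgeR adjusted p = 0.00122). Syt11, at 24.0, 268 and 1515 CPM against 20.3, 138 and 484 CPM, rose by log2 1.19 ± 0.36 (SE, edgeR adjusted p = 0.00974). Syt7, at 0.704, 57.6 and 423 CPM against 2.95, 26.6 and 136 CPM, rose by log2 1.54 ± 0.52 (SE, edgeR adjusted p = 0.0215). Snap25 was at log2 -1.45 (edgeR adjusted p = 0.0759), and passed under RLE scaling at -1.80 (edgeR adjusted p = 0.0213), making that split 5 higher and 1 lower, beside 1168 and 995 over all genes. Vamp3 was at log2 1.47 in the pools (edgeR adjusted p = 0.0635). Other cells' RNA moved with this comparison too, with hepatocyte sums at a median of 1545 CPM in nude pools and 0.561 CPM in spheroid pools and erythrocyte sums at 1259 and 0 CPM. Among the 18 nude pools with the lowest hepatocyte sums, 4 of 22 members and 1772 of 7454 genes passed, Cplx2 at log2 2.82 (edgeR adjusted p = 5.3e-07), Syt11 at 1.52, Rab3d at 2.56 and Syt7 at 1.68. Rab27a had too few counts to be tested there. The part of the remaining liver and blood RNA was not tested.

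In F1 liver pools 3 of 22 members rose and 0 fell, against 11.6% of 7249 genes (8.94% higher and 2.65% lower), with medians of 1.14 for members and 0.46 for all genes on the log2 scale. Hepatocyte and erythrocyte sums had medians of 307 and 334 CPM in these pools. Among the 12 F1 pools with the lowest hepatocyte sums, 6 of 26 members and 1565 of 7793 genes passed, with Rab27a at log2 2.42 (edgeR adjusted p = 0.0259). Rab27a was at 0.754, 6.17 and 199 CPM against 0, 1.14 and 31.8 CPM in spheroid pools and rose by log2 3.04 ± 0.77 (SE, edgeR adjusted p = 0.00536). Syn2, a synapsin that tethers vesicles, and Rab3d each had 1 extreme F1 pool. Syn2 was at 0, 5.54 and 1493 CPM against 0, 6.92 and 69.2 CPM, a lower median in the F1 pools, with a fitted log2 of 4.08 (edgeR adjusted p = 0.0096). Without F1 pool replicate 2 it was at 1.87 (edgeR adjusted p = 0.181). Rab3d was at 0, 2.12 and 1307 CPM against 0, 3.25 and 22.1 CPM, with a fitted log2 of 4.02 (edgeR adjusted p = 0.00756), and 2.13 without F1 pool replicate 21 (edgeR adjusted p = 0.102).

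Once the 17 F1 pools with over 10% ERCC were left out, Rab27a was at log2 1.25 (edgeR adjusted p = 0.388), Syn2 at 1.21 (edgeR adjusted p = 0.461) and Rab3d at 3.42 (edgeR adjusted p = 0.0195), and Stx3 and Sv2c passed as lower (log2 -7.14 and -5.97, edgeR adjusted p = 0.0352 and 0.0272). The members thus went from 3 higher and 0 lower to 1 higher and 2 lower of 30, and all genes from 648 higher and 192 lower to 684 higher and 734 lower of 9368. Cplx2 in F1 pools was at 1.54, 58.5 and 1104 CPM, close to the spheroid pools in its median, and at log2 1.53 (edgeR adjusted p = 0.058). Snap25, lower in the F1 10-cell libraries, was at log2 0.40 in the F1 pools (95% interval -0.97 to 1.77, edgeR adjusted p = 0.765). Between F1 and nude pools it was at 1.91 (0.44 to 3.37, edgeR adjusted p = 0.0793). Between F1 and nude pools 1 of 20 members passed, Syn2 at log2 3.42 (edgeR adjusted p = 0.0108), against 12% of 6010 genes (8.2% higher and 3.79% lower), with a median of 0.30 for members and 0.24 for all genes. Without F1 pool replicate 2 Syn2 was at log2 0.98 (edgeR adjusted p = 0.475). With the libraries over 10% ERCC left out of this comparison, 0 of 24 members passed as higher and 1 as lower, beside 261 and 339 of 8689 genes. Vamp3, which differed between the hosts in the 10-cell libraries, was at log2 -0.07 between the pools (95% interval -1.14 to 0.99).

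**Figure D3:**
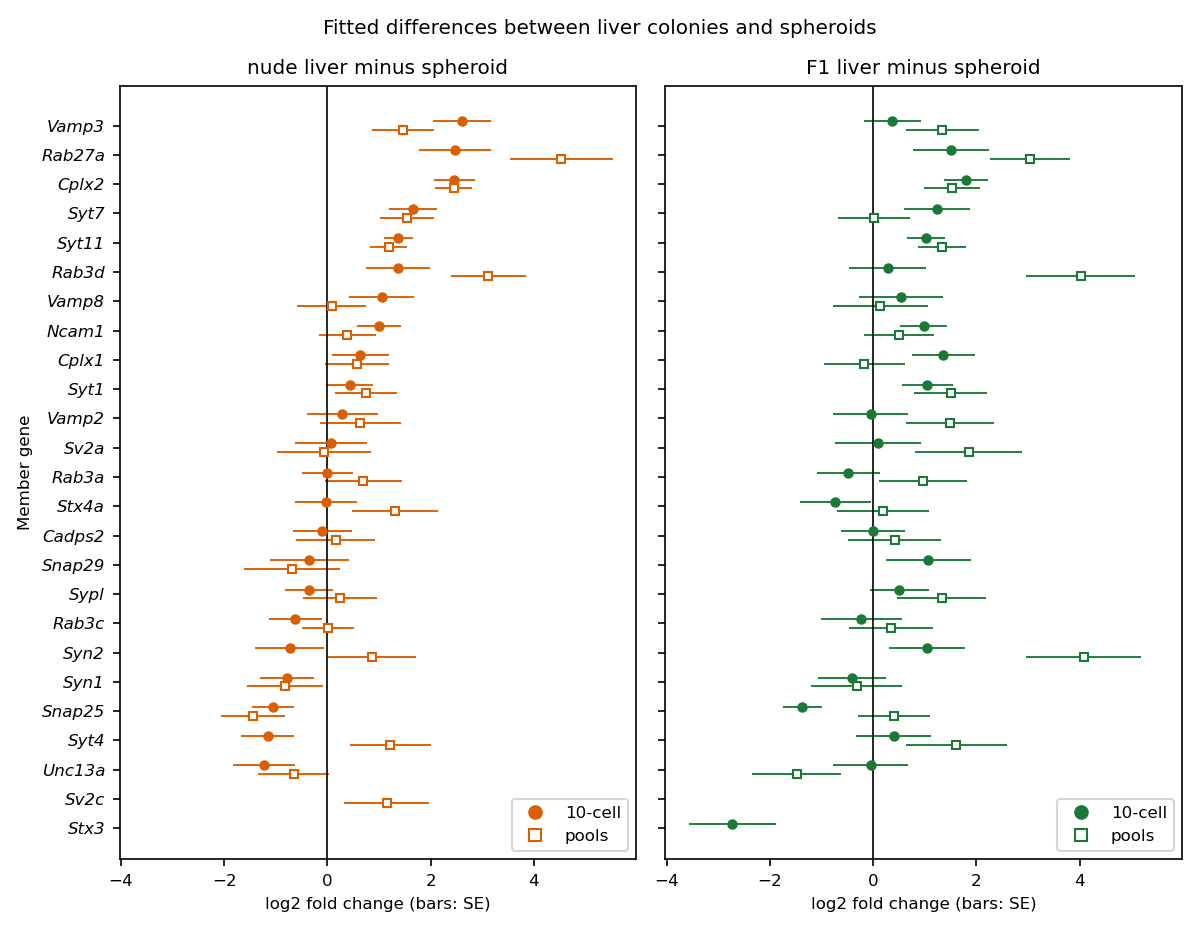
Fitted log2 fold changes (horizontal, bars are the SE) of the members tested (vertical) in nude liver and F1 liver against spheroids, with 10-cell libraries and pools as separate symbols. Cplx2 is right of 0 in all 4 fits (2.46 and 2.45 in nude liver, 1.80 and 1.53 in F1 liver), while Snap25 is left of 0 in both 10-cell fits and in nude pools (-1.45) and right of 0 in F1 pools (0.40).

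Comparing 10-cell libraries with pools asks whether a gene varies more between captures than the method does. The spread of a gene was how far each library lay from its group's median, in either direction, on the log2(CPM + 1) scale. It differed for 0 members at an adjusted p under 0.05 by limma in each of 5 tests. Over all genes 0% passed in spheroids, 0.777% in nude liver (0.564% with a wider and 0.213% with a narrower spread in 10-cell libraries) and 1.48% in F1 liver (0.537% wider and 0.948% narrower). Unadjusted p values under 0.05 were found for 2 of 26 members and 508 of 8602 genes in spheroids, 5 of 26 and 1366 of 9397 in nude liver, and 2 of 26 and 1561 of 8759 in F1 liver. Without the libraries over 10% ERCC, which include 17 of the 24 F1 pools, the genes called in F1 liver went from 130 of 8759 to 3 of 8464, and 0 members passed. Snap25 in F1 liver came nearest, with a smaller spread in 10-cell libraries than in pools (limma difference -1.30 ± 0.37 SE, adjusted p = 0.0528). For the liver-minus-spheroid difference of the excess spread, 0 members passed, against 0% of all genes in nude liver and 0.504% in F1 liver (0.123% higher and 0.381% lower). An unadjusted p under 0.05 was found for 5 of 25 members and 1158 of 9422 genes in nude liver, and for 3 of 27 members and 1510 of 8929 genes in F1 liver. Without the libraries over 10% ERCC, 0 of 8769 genes passed in F1 liver.

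RPC spheroids were compared with KP1 spheroids, both as 10-cell libraries. Of 26 members tested, 3 were higher in RPC (Syt2, Ncam1 and Vamp3) and 4 were lower (Snap25, Syt7, Vamp8 and Syt4), against 21.9% of 8600 genes (10.3% higher and 11.6% lower). On the log2 scale the members had a median of 0.19 and all genes one of 0.01. Under RLE scaling the members' split was the same, and over all genes 1131 were higher and 826 lower. The comparison uses the 28 spheroid libraries that also served for the livers.

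The calcium sensors went in both directions. Syt2 (1:134646677-134762593, plus strand), a fast sensor for synchronous release, was at 0, 0.356 and 30.3 CPM in KP1 and at 0, 17.3 and 97.5 CPM in RPC. RPC libraries were mostly high and KP1 mostly near 0, with overlap up to 30.3 CPM, and Syt2 was 6.48-fold higher (log2 2.70 ± 0.68 SE, edgeR adjusted p = 0.00218). Syt7 was at 1.11, 14.6 and 219 CPM in KP1 and at 0, 1.21 and 22.8 CPM in RPC. Most RPC libraries were thus below most KP1 libraries, and Syt7 fell by 3.19 ± 0.69 (SE) on the log2 scale (edgeR adjusted p = 0.000327). Syt4, a dense core vesicle synaptotagmin, was at 0, 12.8 and 55.1 CPM in KP1 (counts in 25 of 28) and at 0, 0 and 32.9 CPM in RPC (counts in 3 of 24). It fell by 3.52 ± 0.91 (SE) on the log2 scale (edgeR adjusted p = 0.00273).

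Among the SNAREs, Snap25 was at 9.89, 64.8 and 236 CPM in KP1 and at 0.521, 10.2 and 110 CPM in RPC, overlapping from 9.89 to 110 CPM. It fell by 2.08 ± 0.44 (SE) on the log2 scale, which is 4.21-fold (edgeR adjusted p = 0.000281). Vamp8 (endobrevin; 6:72385223-72390703, minus strand), a vesicle SNARE of regulated secretion outside neurons, was at 0, 6.11 and 274 CPM in KP1 and at 0, 0 and 24.0 CPM in RPC (counts in 11 of 24). It fell by 4.14 ± 0.94 (SE) on the log2 scale (edgeR adjusted p = 0.000654), and 2 of 24 RPC libraries were above the KP1 median. Without the highest KP1 library, replicate 23, it was at log2 -3.13 (edgeR adjusted p = 0.00566). Vamp3 was at 0.890, 6.88 and 104 CPM in RPC against 0, 2.32 and 25.9 CPM, and rose by log2 1.55 ± 0.54 (SE, edgeR adjusted p = 0.0308). Without RPC replicate 8, the highest library, Vamp3 was at log2 1.21 (edgeR adjusted p = 0.09).

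Ncam1 (9:49502136-49798925, minus strand), a homophilic adhesion molecule of nerve and neuroendocrine cells, was at 2.14, 19.7 and 113 CPM in KP1 and at 9.87, 77.4 and 209 CPM in RPC. The RPC median lay in the upper part of the KP1 range, and the difference was 2.59-fold (log2 1.37 ± 0.35 SE, edgeR adjusted p = 0.00221). Syn2 was at 0, 62.0 and 516 CPM in RPC against 0, 8.54 and 247 CPM, a difference that did not pass in the main edgeR fit (log2 1.37 ± 0.60 SE, edgeR adjusted p = 0.0964). Against the 9 KP1 libraries with ERCC, which match the RPC libraries in this respect, 5 of 29 members passed (1 higher and 4 lower), and 1785 of 9919 genes. In that setting Syt2 was at log2 2.02 (edgeR adjusted p = 0.124), Ncam1 at 1.20 (edgeR adjusted p = 0.111), Vamp3 at 1.78 (edgeR adjusted p = 0.136) and Syt4 at -3.23 (edgeR adjusted p = 0.051). Against the 19 without ERCC, 7 of 27 members and 1614 of 8755 genes passed.

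**Figure D4:**
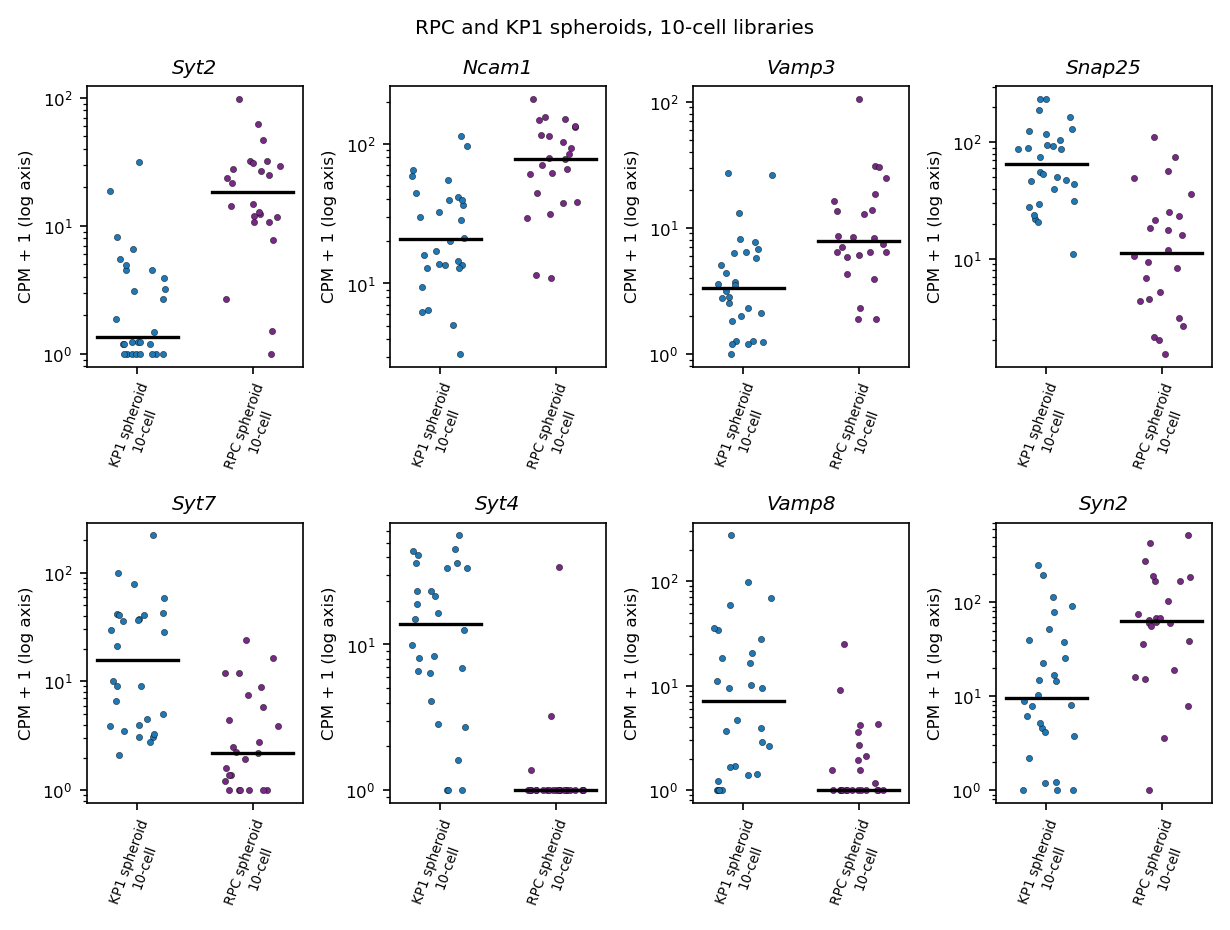
CPM + 1 per library (vertical, log axis) of the 7 members that differed between RPC and KP1 spheroids, as 10-cell libraries (horizontal). Syn2, which did not pass in the main edgeR fit, is shown as well. Each point is 1 library and the bar is the group median. Syt4 and Vamp8 sit at 0 in most RPC libraries (counts in 3 and 11 of 24), and Syt2 is near 0 in KP1 and at a median of 17.3 CPM in RPC.

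Some members fell below the count filter and were read only from a fit with no filter, which called 15 of 37 members and 6115 of 19396 genes, so part of the larger count is shared by genes at large. Stx1a had 0 counts in the 28 KP1 libraries and 258 counts in RPC, with counts in 19 of 24 libraries and at most 8.34 CPM. Set against a floor of 3 counts over the KP1 group (0.0240 CPM), Stx1a was at least 85-fold higher in RPC. Ncam2 (OCAM), an adhesion molecule of olfactory neurons, also had 0 counts in KP1 and had 858 in RPC (counts in 16 of 24), at least 283-fold higher. Syt5, a sensor of dense core vesicles, had 109 counts in 9 of 24 RPC libraries and was at least 35-fold higher. These bounds allow for counting error in KP1 only. The RPC value is taken as observed, and the spread between libraries is not covered. Syt13 (mean 3.60 against 0.164 CPM, edgeR adjusted p = 0.000421), Rab27b (2.10 against 0.110 CPM, edgeR adjusted p = 0.000926) and Syp (11.2 against 1.94 CPM, edgeR adjusted p = 0.0375) were higher in the same fit. Sv2b was higher as well (4.60 against 0.313 CPM, edgeR adjusted p = 0.00233), with 102 CPM in 1 RPC library.

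The members that passed in no comparison in the main edgeR fits (TMM scaling, all libraries, no covariate) are described by their medians. An edgeR alternative could still call one, as it did Unc13a with the hepatocyte sum in the model. Several were called in the 10-cell comparisons by another tool. With DESeq2, Stx4a was lower (log2 -1.59, adjusted p = 0.0296) and Syt1 higher (log2 1.28, adjusted p = 0.0212) in F1 liver, and Sypl (log2 -1.45, adjusted p = 0.00457), Rab3c (log2 -1.35, adjusted p = 0.0329) and Unc13a (log2 -1.50, adjusted p = 0.0482) lower in RPC. With limma-voom, Rab3c (log2 -2.28, adjusted p = 0.0304), Rab3a (log2 -1.72, adjusted p = 0.0368) and Stx4a (log2 -1.84, adjusted p = 0.0482) were lower in F1 liver than in spheroids, Rab3c was lower in F1 than in nude liver (log2 -2.92, adjusted p = 0.000541) and Snap29 lower in nude liver (log2 -1.76, adjusted p = 0.0249). In RPC limma-voom called Vamp2 (log2 2.45, adjusted p = 0.000852), Rab3a (log2 1.18, adjusted p = 0.0325) and Cplx1 (log2 1.72, adjusted p = 0.0212) higher. Syt1, the main fast calcium sensor of neurons, had median CPM of 34.5 in spheroids, 61.3 in nude liver, 41.1 in F1 liver and 18.4 in RPC, and 76.7, 33.0 and 45.5 in spheroid, nude and F1 pools. Its ranges overlapped in every group, and the F1 minus spheroid log2 difference was 1.05 (95% interval 0.08 to 2.01, edgeR adjusted p = 0.152). Cplx1, the other complexin of neurons, had medians of 8.05, 19.5, 24.3 and 21.0 CPM in spheroid, nude, F1 and RPC libraries and 14.3, 15.8 and 3.56 CPM in the pools. Its F1 minus spheroid log2 difference was 1.36 (0.16 to 2.56, edgeR adjusted p = 0.133). Cplx1 passed in nude liver with limma-voom (log2 1.98, adjusted p = 0.00373) and in F1 liver with DESeq2 (log2 1.56, adjusted p = 0.0185) and limma-voom (log2 2.11, adjusted p = 0.018), so its call depends on the tool.

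Among SNAREs, Vamp2, the synaptic vesicle SNARE, had medians of 1.71, 4.13, 1.33 and 12.8 CPM in spheroid, nude, F1 and RPC libraries and 7.22, 2.41 and 3.00 CPM in the pools. Stx4a, a plasma membrane syntaxin of many tissues, had medians of 16.4, 17.8, 2.74 and 8.2 CPM, and 16.3, 2.25 and 0.858 CPM in the pools. Snap29, a SNARE of intracellular fusion, had medians of 3.72, 0.259, 0.739 and 6.42 CPM, and 6.13, 0 and 0 CPM in the pools. All of these SNAREs overlapped across groups with maxima from 25.2 to 507 CPM. Vamp1, the second synaptic vesicle SNARE, stayed at medians of 0.210 to 1.34 CPM in all 7 groups.

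Of the Rab proteins, Rab3a, the synaptic vesicle GTPase, had medians of 10.6, 10.3, 3.14 and 28.5 CPM in spheroid, nude, F1 and RPC libraries and 11.5, 8.13 and 1.99 CPM in the pools. Rab3c, a related vesicle GTPase, had medians of 8.81, 17.2, 1.86 and 15.0 CPM, and 23.2, 14.8 and 1.78 CPM in the pools. F1 had the lowest medians of both, and neither passed in the main edgeR fits. There the F1 minus nude log2 difference of Rab3c in 10-cell libraries had the other sign (0.41). Rab3b had medians of 0.354, 0, 0 and 3.72 CPM, and 3.91, 0 and 0 CPM in the pools. Rab27b, the close relative of Rab27a, had medians of 0 to 0.307 CPM.

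Among vesicle proteins, Syn1 had medians of 16.1, 9.73, 2.28 and 32.3 CPM in spheroid, nude, F1 and RPC libraries and 22.3, 1.88 and 1.05 CPM in the pools. Sypl, a synaptophysin-like protein outside neurons, had medians of 19.0, 19.2, 9.63 and 14.2 CPM, and 15.6, 2.59 and 4.42 CPM in the pools. In RPC, Sypl was at log2 -1.30 (edgeR adjusted p = 0.0527). Sv2a, a vesicle transporter-like protein, had medians of 2.31, 1.87, 0.260 and 2.96 CPM, and 6.85, 0 and 0.399 CPM in the pools. Its relatives Sv2b and Sv2c had medians of 0 to 1.84 CPM.

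Of the priming factors, Cadps2 (CAPS2), which primes dense core granules, had medians of 10.2, 4.70, 3.27 and 16.6 CPM in spheroid, nude, F1 and RPC libraries and 24.0, 4.99 and 1.42 CPM in the pools. Unc13a (Munc13-1) had medians of 2.51, 6.46, 4.24 and 2.73 CPM, and 4.98, 1.94 and 0.345 CPM in the pools. For both genes a few high libraries set the means. Cadps (CAPS1) had medians of 0 to 2.00 CPM and Rims2, an active zone scaffold, of 0 to 0.465 CPM.

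Bulk RNA from KP1 spheroids gave most of the better expressed members at higher levels. It is 1 library per line, made by another protocol, so these values have no replicate check and no p-value. The 28 members with at least 10 CPM in KP1 bulk had a median ratio to the 10-cell spheroid mean of 6.96, and the 9945 genes taken by the same minimum had one of 3.42. More than 2-fold above were 21 of those members and 65.4% of those genes. Taking genes by their bulk level favours ratios above 1, and it leaves out the members more than 2-fold below. Rims2 was at 91.6 CPM in bulk against 0.664 CPM in 10-cell libraries, a ratio of 138. Syp was at 91.5 against 1.94 CPM, a ratio of 47.1, so synaptophysin RNA that was scarce in captures was plain in bulk. Cplx2 was at 717 against 54.8 CPM. In the other direction were Vamp8 (2.61 against 24.9 CPM) and Stx3 (5.33 against 15.7 CPM), both under 10 CPM in bulk, and Syn2 (17.8 against 35.4 CPM) and Stx4a (21.1 against 30.2 CPM).

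Per kilobase of exon in KP1 bulk, Cplx2 stood first at 146 CPM per kb, followed by Ncam1 (43.2), Syt11 (42.5), Syt1 (39.4), Syt4 (37.2), Syt7 (30.6), Snap25 (25.0) and Vamp2 (22.7). In KP2 the order was Cplx2 (166 CPM per kb), Cadps2 (98.6) and Syt11 (52.9). Complexin 2 RNA was thus the most abundant of the members per length in both lines.

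Among the 4 bulk lines, 10 of 34 members differed more than 4-fold between the highest and lowest line (29.4%), against 16.2% of all genes at the same minimum level. The median ratio was 2.45 for members and 1.77 for all genes. Syt1 was at 329 CPM in KP1 (95% interval 320 to 337) and 26.5 CPM in KP2 (25.0 to 28.1), with 108 CPM in KP3 and 32.6 CPM in KP5. Syt7 was at 229 CPM in KP1, 40.5 in KP2, 259 in KP3 and 734 in KP5. The 2 sensors had different orders, KP1 being highest for Syt1 and KP5 for Syt7. Cadps2 was highest in KP2 at 944 CPM, against 161 in KP1, 272 in KP3 and 139 in KP5.

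Several members were low in KP1 bulk and present in another line. Sv2b was at 45.8 CPM in KP2 and 2.32 to 4.65 CPM in the other lines, while Sv2c was at 1.20 CPM in KP2 and 29.0 to 45.5 CPM elsewhere. Syt5 was at 26.9 CPM in KP3 and 20.4 CPM in KP5, against 0.579 CPM in KP1 and 0.165 CPM in KP2. Syt13, an atypical synaptotagmin, was at 51.9 CPM in KP5 and 0.989 CPM in KP2. KP5 was also highest for Stx3 (82.1 CPM, against 5.33 in KP1), Vamp8 (22.2 against 2.61 CPM) and Rab27b (36.9 against 4.98 CPM). Syp, in contrast, lay between 70.7 and 91.5 CPM in all 4 lines. Intervals here cover counting error only.

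**Figure D5:**
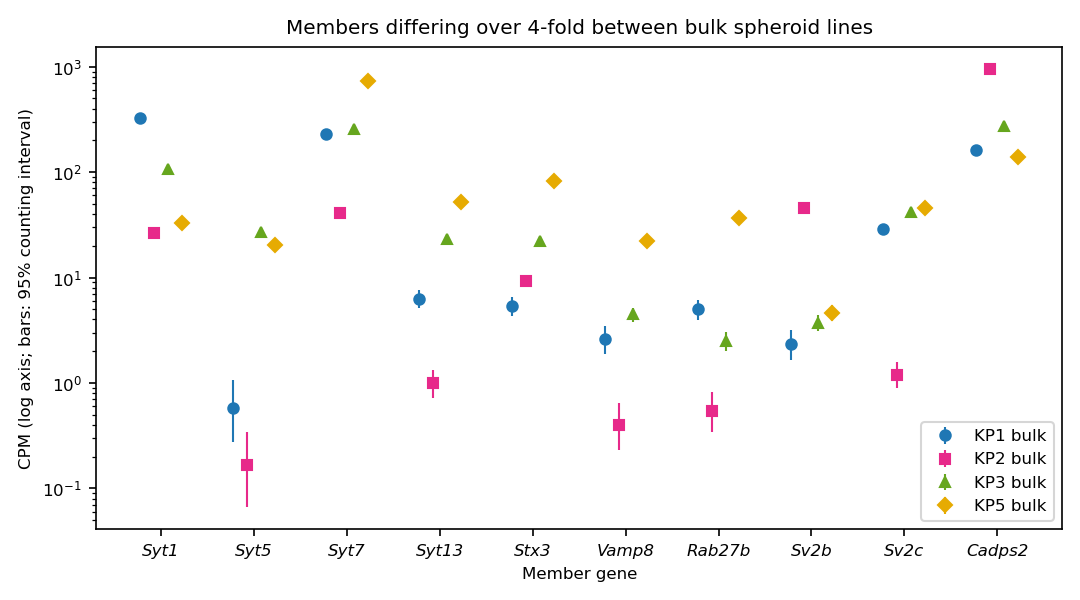
CPM (vertical, log axis, bars are 95% counting intervals) of the members that differ more than 4-fold between the bulk spheroid lines KP1, KP2, KP3 and KP5 (horizontal: member gene); each symbol is 1 library. KP5 is highest for Syt7 (734 CPM) and Stx3 (82.1 CPM), and KP2 for Cadps2 (944 CPM) and Sv2b (45.8 CPM).

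The other genes of the pathway were taken from 6 lists of 127 genes that exclude the members. In nude liver 13 of 72 tested were higher and 13 lower than in spheroids, in F1 liver 5 of 67 were higher and 3 lower, and in RPC 9 of 74 were higher and 12 lower, with the background shares as above. Among fusion genes, 5 of 23 were higher and 3 lower in nude liver, among them Syt12, another synaptotagmin, at 32.6 ± 41.3 CPM (SD, n = 33) against 1.82 ± 2.06 CPM (SD, n = 28; log2 4.16, edgeR adjusted p = 5.52e-08). Syt12 was also higher in the nude pools (log2 3.86) and F1 pools (log2 3.62) and lower in F1 than in nude 10-cell libraries (log2 -2.06, edgeR adjusted p = 0.00196). Active zone genes and Rab effectors had 1 of 11 higher and 4 lower in nude liver, and the same counts in RPC. There Rims3, a small active zone protein, was at 33.5 ± 33.8 CPM (SD, n = 24) against 521 ± 227 CPM (SD, n = 28; log2 -4.34, edgeR adjusted p = 1.38e-20), and Rab3gap1, which acts on Rab3, was at 416 against 2371 CPM (log2 -2.58, edgeR adjusted p = 2.1e-13). Vesicle endocytosis genes had 3 of 15 higher in nude liver, one of them Bin1 at 103 against 14.9 CPM (log2 2.78, edgeR adjusted p = 2.6e-07).

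The list of RE1 silencing and neuroendocrine regulators had 1 of 6 higher and 4 lower in nude liver, 0 of 4 higher and 2 lower in F1 liver, and 2 of 7 higher and 2 lower in RPC. Its median log2 fold change was -1.53 in nude liver and -1.65 in F1 liver, against -0.04 and 0.22 over all genes. Rest, which encodes the silencer that binds RE1, had 0 counts in spheroid 10-cell libraries and pools, and had counts in 8 of 33 nude liver, 1 of 31 F1 liver and 5 of 24 RPC libraries. In bulk it was at 2.72 CPM in KP1, the highest of the 4 lines, so 0 counts in KP1 captures do not show its absence from these cells. Levels of the members and of these regulators are given side by side only.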

How the data were processed

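The authors deposited 1 table of expected counts per gene for 199 libraries, in which 89.3% of values are whole. The submitters' processing notes name RSEM, Bowtie2, GRCm38 and GRCh38.p12, without versions or roles. Whether counting used the strand is not given in the sources used here. The exons of 13 members overlap another gene, mostly on the other strand (Syt7, Syt4, Snap29, Stx4a, Rab3a, Rab3b, Sv2b, Syp, Syn1, Syn2, Unc13a and Ncam1, and Rab27a on its own strand), so their counts may include it.

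From the deposited expected counts, rounded, the 92 ERCC transcripts were left out and CPM computed over 31581 genes. Means were compared with edgeR 4.0.16 in R 4.3.3 (quasi-likelihood F test, TMM scaling, filterByExpr, Benjamini-Hochberg adjustment over all genes tested, threshold 0.05). Each fit held the 2 groups it compares, and the SE is the fold change divided by the root of F. Spread was tested with limma 3.58.1 on log2(CPM + 1) for genes averaging 5 CPM or more. The scripts were tested on simulated data. No libraries agreed within sampling noise. Bulk intervals are exact binomial at 95%. Alternatives used RLE scaling, other filters, DESeq2 1.42.0, limma-voom, a replicate block, and subsets of libraries by ERCC share, Rpl19-ps11 and hepatocyte markers. Promoters are RefSeq windows searched on both strands.

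The members and the gene lists were chosen with earlier results of these data known. Members that passed a test, or reached a mean of 10 CPM in a group or 10 CPM in a bulk line, are described with values, and the rest by their ranges. The values of 1 regulator are not reported here.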

Additional observations from a re-analysis of the deposited data

How the results depend on the processing

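Of 26 member differences called, 247 alternative values were computed: 200 stayed called, 47 lost the call and 0 reversed. The calls of Syt7, Snap25 and Vamp8 in RPC and of Cplx2, Rab3d and Syt11 in nude pools held in every alternative run. Of 74 alternative counts of called members, 48 were within 1.5 times the value reported. With no filter the counts were 12 in nude liver (6 reported), 9 in F1 liver (3), 4 between F1 and nude liver (1), 15 in RPC (7), 10 in nude pools (5), 7 in F1 pools (3) and 5 between the pools (1). Those fits called 8431 of 20050, 5072 of 19000, 6294 of 19872, 6115 of 19396, 7888 of 20053, 5224 of 18440 and 5857 of 19852 genes, in each case a larger share of all genes than reported. With limma-voom they were 10 in nude liver (3866 of 7834 genes), 8 in F1 liver (1743 of 7309), 6 between F1 and nude liver (1751 of 7064) and 11 in RPC (3081 of 8600), and with DESeq2 9 in F1 liver (1709 of 7309) and 4 between F1 and nude liver (1972 of 7064). With a minimum mean of 5 CPM they were 5 in F1 liver (1282 of 8579 genes) and 2 between F1 and nude liver (1987 of 9123). The hepatocyte covariate left 1 in nude liver (130 of 7834 genes). Only spheroids with ERCC left 0 in F1 liver (174 of 8897 genes). Under RLE scaling the middle gene of all tested went, on the log2 scale, from 0.16 to -0.06 in nude pools, from 0.46 to 0.32 in F1 pools and from 0.01 to 0.16 in RPC. F1 libraries with low Rpl19-ps11 gave 0 against spheroids and 2 against nude liver (302 of 10292 genes), and those with high levels 3 against nude liver (1297 of 7342). The libraries with the lowest hepatocyte markers, a setting added after seeing the data, gave 6 in F1 pools (1565 of 7793 genes) and 0 between the pools (295 of 5311). A pseudocount of 0.5 gave 1 for the spread in F1 liver (0 reported; 161 of 8759 genes). With the replicate number as a block, the counts were 1 in F1 liver (902 of 6949 genes), 3 between F1 and nude liver (887 of 6731) and 0 between the pools (179 of 5101). In the pairing check at most 1 pair per comparison correlated above 0.1 (highest r 0.325, RPC and KP1 spheroids). At most 1 library per comparison correlated best with its own number. The labels do not say whether the numbers pair libraries, so whether libraries with the same number shared processing is not known. The cause of these changes was not tested. Low counts limit Stx1a, Syt5, Syt13, Ncam2, Rab27b, Sv2b, Rims2 and Cadps.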

Other observations

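Members below the count filter showed some differences between liver colonies and spheroids in the fit with no filter. In F1 liver, Syt13 was at a mean of 5.29 CPM against 0.164 CPM (log2 5.11, edgeR adjusted p = 0.00032) and Syp at 17.0 against 1.94 CPM (log2 3.12, edgeR adjusted p = 0.0163), while Cadps was lower (log2 -3.08, edgeR adjusted p = 0.0087). The median of Syt13 and of Syp was 0 CPM in both groups, so a few libraries carry these means, and 224 CPM was the highest value of Syp. In nude pools Cadps was lower than in spheroid pools (log2 -3.67, edgeR adjusted p = 9.49e-05), and in nude liver Rims2 was higher than in spheroids (log2 2.67, edgeR adjusted p = 0.0195).

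Neurod1, a neuronal transcription factor that marks another state of small cell lung cancer, had a median of 80.1 CPM in RPC and 1.91 CPM in KP1 spheroids, with counts in 24 of 24 and 26 of 28 libraries. In bulk it was at 14.2 CPM in KP1, 14.7 CPM in KP3, 0.165 CPM in KP2 and 0.329 CPM in KP5. Srrm4, a splicing factor of neurons, was at 1.46 CPM in F1 liver and 17.2 CPM in nude liver (log2 -3.37, edgeR adjusted p = 0.000917). Unc13d (Munc13-4), a priming factor of granules in blood cells, was at 20.8 CPM in nude pools and 0.485 CPM in spheroid pools (log2 5.62, edgeR adjusted p = 3.84e-07). The platelet, megakaryocyte and mast cell markers summed to a median of 199 CPM in nude pools and 47.2 CPM in spheroid pools. Only 4 and 3 of these 9 markers had counts there, and KP1 bulk, from culture, summed to 236.6 CPM. Macrophage markers summed to 19.8 and 6.3 CPM. The part of such cells in the Unc13d difference was not tested.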
